A study of Mus musculus with 6 samples.

Results

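The mitochondrial chromosome of the mouse carries 13 protein-coding genes, and 10 of them are described here as their messenger RNA counts in B16-F10 melanoma cells: mt-Nd1, mt-Nd2, mt-Nd4, mt-Nd5, mt-Nd6, mt-Cytb, mt-Co1, mt-Co2, mt-Co3 and mt-Atp6. They were chosen as named genes whose annotation lies on chromosome MT, without use of any measured value, and are 10 of the 37 genes on MT and of the 39179 genes counted. The other protein-coding genes of MT, mt-Nd3, mt-Nd4l and mt-Atp8, held at most 11 counts in any library. B16-F10 is a cultured melanoma line from C57BL/6 mice, and the study compared 3 libraries of Sirpa-wild type (Sirpa-WT) cells with 3 of Sirpa-knockout (Sirpa-KO) cells, both untreated as far as the labels say. Sirpa encodes a membrane receptor that binds CD47. The labels give no method of deletion, no number of clones and no word on whether replicates came from different cultures; the p-values here measure spread between libraries that may be technical. One label field names the cell line Pmel and the source a tumor, while the series text gives cultured B16-F10 cells.

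The respiratory chain of the inner mitochondrial membrane is built from proteins of both genomes. The mitochondrial genome is transcribed as long precursors from each strand, which are cut at the transfer RNAs and, for most messengers, polyadenylated. The mt-Nd genes encode subunits of complex I, the NADH dehydrogenase. mt-Cytb encodes cytochrome b of complex III, the mt-Co genes encode the catalytic core of complex IV, cytochrome c oxidase, and mt-Atp6 encodes a proton channel subunit of complex V, the ATP synthase. Of these, only mt-Nd6 is read from the light-strand transcript. Pieces of this genome have also been copied into nuclear chromosomes, where they are annotated as pseudogenes, and this bears on how reads of the members can be counted.

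Total counts were 338824 to 411695 in 5 libraries and 29877270 in Sirpa-KO replicate 1, which held 82.6 times the mean of the others and is called the deep library below. Processed pseudogenes held 25.6% to 28.7% of the counts in the 5 shallow libraries and 0.160% in the deep one. Across 5397 genes, log2 CPM (counts scaled to the same library total, with 1 added before the logarithm) correlated at r = 0.92 to 0.95 among the shallow libraries and at 0.04 to 0.12 between a shallow library and the deep one, a description across genes, which are not replicates. Sirpa itself was listed at 29.1, 20.4 and 8.68 CPM in Sirpa-WT and at 53.0, 17.7 and 16.3 CPM in Sirpa-KO. Those ranges overlapped, so the counts do not separate the labels, and each direction below is between libraries as labelled. All 9 melanocyte markers checked, Pmel, Tyr and Mlana among them, were detected in every library, with summed levels of 12732 to 19240 CPM in the shallow libraries and 16013 in the deep one. Of 14 markers of immune, stromal, endothelial and epithelial cells, 8 were at 0 in every shallow library, and their sum was 14.6 to 43.5 CPM there and 9.51 in the deep library. Because the deep library stood apart, each result is given with it and without it. In a bulk sample, fewer mitochondrial transcripts per cell and more RNA of other kinds cannot be told apart.

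The members differed in how much of their sequence a nuclear pseudogene shares, and stretches of 60 bases show the range. In these sequences (5′ to 3′ on the strand of the gene, GRCm38), capitals mark bases of a copy that differ from the mitochondrial gene. The set shown first is from mt-Co1 at MT:6785-6844, bases 1458 to 1517 of the gene, with a copy of each degree: Gm29216 at chr1:24615734-24615793, Gm13340 at chr2:22588131-22588190 and Gm11512 at chr11:90538509-90538568, all on the minus strand.
mt-Co1: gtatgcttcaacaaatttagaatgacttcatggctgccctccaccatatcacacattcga
Gm29216: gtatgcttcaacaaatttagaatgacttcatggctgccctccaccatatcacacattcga
Gm13340: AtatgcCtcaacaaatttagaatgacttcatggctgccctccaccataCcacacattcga
Gm11512: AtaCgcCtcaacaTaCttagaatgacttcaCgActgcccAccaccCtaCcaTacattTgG
Gm29216 had 0 mismatches in this window, Gm13340 had 3, the substitutions G1458A, T1464C and T1506C counted from the first base of mt-Co1, and Gm11512 had 13. The window was chosen where Gm11512 differed most, within the part also copied in Gm29216. Over its whole alignment Gm11512 had 61 mismatches in 654 bases. The next pair shows the start of mt-Co2 (MT:7013-7072) beside Gm28661 (chr1:24615506-24615565, minus strand), with which it was identical.
mt-Co2: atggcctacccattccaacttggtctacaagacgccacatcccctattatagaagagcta
Gm28661: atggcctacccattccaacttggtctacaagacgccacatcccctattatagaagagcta
For 2 members without a near-identical annotated copy, the windows shown are those where the annotated copy differed most, in 8 and 11 of 60 bases. Over the whole alignment Gm11410 had 81 mismatches in 1142 bases and Gm11408 had 33 in 519. The windows are mt-Cytb (MT:14970-15029) beside Gm11410 (chr4:80004814-80004873, plus strand), and mt-Nd6 (MT:13757-13816, minus strand) beside Gm11408 (chr4:80003601-80003660, minus strand).
mt-Cytb: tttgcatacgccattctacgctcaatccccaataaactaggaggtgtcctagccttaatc
Gm11410: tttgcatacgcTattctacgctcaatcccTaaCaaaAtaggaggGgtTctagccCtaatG
mt-Nd6: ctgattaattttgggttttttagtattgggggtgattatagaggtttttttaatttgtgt
Gm11408: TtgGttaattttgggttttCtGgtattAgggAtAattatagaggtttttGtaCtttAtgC
The last stretch shows where the copied part of mt-Nd4 ends (MT:11013-11072). Here capitals mark the last 30 bases shared with Gm28439, and the lower-case bases after them lie outside the copy.
mt-Nd4: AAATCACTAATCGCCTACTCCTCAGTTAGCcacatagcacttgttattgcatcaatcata

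Near-identical here means an alignment of 100 bases or more to an annotated nuclear transcript, with at least 99% identity over its whole length. By that measure a cluster on the minus strand of chromosome 1 held 99.6% of mt-Co2 (Gm28661), 99.6% of mt-Atp6 (Gm10925) and 99.9% of mt-Co3 (Gm28437). It also held 63.6% of mt-Nd4, from base 1 to base 876 (Gm28439), and 31.3% of mt-Co1, from base 1063 to base 1545 (Gm29216). No alignment to an annotated transcript reached that identity for mt-Nd1, mt-Nd2, mt-Nd5, mt-Nd6 or mt-Cytb. Shorter identical stretches lay inside less similar copies as well. Of the 50-base windows of mt-Co1, 51.1% occurred exactly in an annotated nuclear transcript. That share was 8.19% for mt-Nd2, 7.61% for mt-Nd5 and 0% for mt-Nd1, mt-Nd6 and mt-Cytb. The authors counted read pairs with featureCounts without an option for reads that map to several places. Genes also overlap on the chromosome itself: mt-Atp6 shares 1 base with mt-Co3 and 43 with mt-Atp8, mt-Nd4 shares 7 with mt-Nd4l, and mt-Nd5 and mt-Nd6 share 14 bases on opposite strands. The counting command named no strand option.

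The complex I members were present in every library, and each was higher in the deep library than in any of the others. mt-Nd1 (ENSMUSG00000064341, MT:2751-3707) encodes a membrane subunit near the quinone site. It was at 1508, 1664 and 1849 CPM in Sirpa-WT and at 5549, 1688 and 1534 CPM in Sirpa-KO replicates 1, 2 and 3, the order used throughout. mt-Nd2 (ENSMUSG00000064345, MT:3914-4951), mt-Nd4 (ENSMUSG00000064363, MT:10167-11544) and mt-Nd5 (ENSMUSG00000064367, MT:11742-13565) encode the antiporter-like subunits of the membrane arm. mt-Nd2 was at 566, 596 and 561 CPM in Sirpa-WT and at 3339, 679 and 471 CPM in Sirpa-KO. mt-Nd4 was at 1246, 1419 and 1311 CPM in Sirpa-WT and at 2756, 1505 and 1235 CPM in Sirpa-KO. For both genes the deep library was the highest, and the other Sirpa-KO libraries lay on either side of the Sirpa-WT range. mt-Nd5 was at 865, 902 and 790.1 CPM in Sirpa-WT and at 4517, 1024 and 726 CPM in Sirpa-KO. mt-Nd6 (ENSMUSG00000064368, MT:13552-14070, minus strand), another membrane subunit, was at 65.6, 87.3 and 104 CPM in Sirpa-WT and at 1119, 82.6 and 68.00 CPM in Sirpa-KO. The shallow values of mt-Nd6 rest on 25 to 36 counts, against 33431 in the deep library. Without the deep library, the Sirpa-KO values of mt-Nd6 fell within the Sirpa-WT range.

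The complex III member mt-Cytb (ENSMUSG00000064370, MT:14145-15288) was the next most abundant member after mt-Co1 in CPM in every library. Its levels were 6675, 7946 and 6931 CPM in Sirpa-WT, against 12093, 7691 and 6435 CPM in Sirpa-KO. The deep library was the highest, and the shallow Sirpa-KO libraries were on both sides of the lowest Sirpa-WT library.

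The complex IV members covered the widest range. mt-Co1 (ENSMUSG00000064351, MT:5328-6872), the subunit that holds the heme and copper site where oxygen is reduced, was at 25912, 30564 and 27834 CPM in Sirpa-WT and at 16029, 23528 and 19286 CPM in Sirpa-KO. All 3 Sirpa-KO libraries were below all 3 Sirpa-WT libraries, and the deep library was the lowest. mt-Co2 (ENSMUSG00000064354, MT:7013-7696), which accepts electrons from cytochrome c, had 25, 18 and 12 counts in the Sirpa-WT libraries and 4, 24 and 25 in the Sirpa-KO ones, or 60.7, 52.4 and 34.7 CPM and 0.134, 70.8 and 68.00 CPM. mt-Co3 (ENSMUSG00000064358, MT:8607-9390), the remaining core subunit, had 19, 15 and 12 counts in the Sirpa-WT libraries and 2, 15 and 9 in the Sirpa-KO ones. For mt-Co2 and mt-Co3 the library with the most reads thus held the fewest counts. The complex V member mt-Atp6 (ENSMUSG00000064357, MT:7927-8607) was also lowest in the deep library, with 21, 12 and 29 counts in the Sirpa-WT libraries and 1, 20 and 16 in the Sirpa-KO ones. In the deep library, 3 counts correspond to 0.10 CPM, so mt-Co3 and mt-Atp6 were under that floor there and mt-Co2 was just above it. In the shallow libraries the floor of 3 counts is 7.29 to 8.85 CPM.

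**Figure D1:**
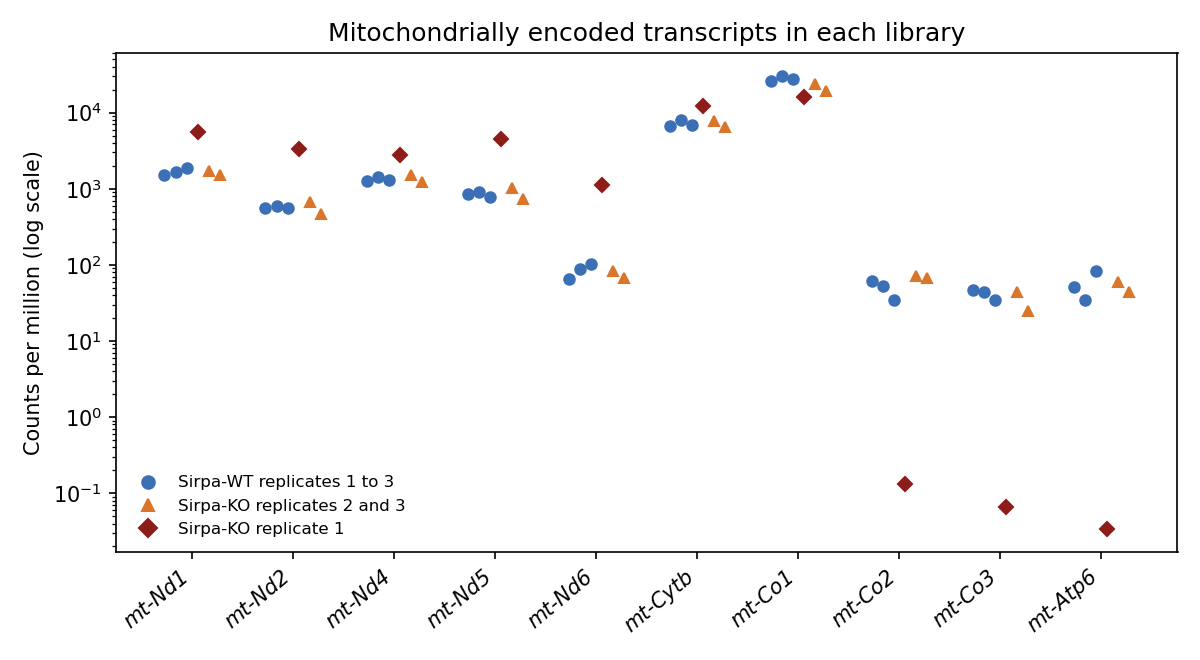
CPM of each of the 10 members in each library, on a log axis, with the members ordered by complex. The deep library (Sirpa-KO replicate 1) lies above the others for the mt-Nd genes and mt-Cytb, and far below them for mt-Co2, mt-Co3 and mt-Atp6.

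Levels between genes were compared per kilobase, as CPM divided by the gene length in kilobases (RPKM). Over the 5 shallow libraries, the median was 16772 (range 12483 to 19782) RPKM for mt-Co1, 6059 (range 5625 to 6946) for mt-Cytb, 1738 (range 1576 to 1932) for mt-Nd1 and 951 (range 896 to 1092) for mt-Nd4. These ranges did not overlap. mt-Nd2 at 545 (range 453 to 654) RPKM and mt-Nd5 at 474 (range 398 to 561) followed. Their ranges overlapped, although mt-Nd2 was above mt-Nd5 in each of the 5 libraries. mt-Nd6 was at 159 (range 126 to 201) RPKM. The part that the kit's selection of polyadenylated RNA had in these levels was not tested. The lowest members were mt-Co2 at 88.8 (range 50.8 to 104), mt-Atp6 at 74.9 (range 51.3 to 123) and mt-Co3 at 55.6 (range 31.2 to 58.9) RPKM, and these neighbours overlapped. mt-Co2, mt-Atp6 and mt-Co3 are also the members with a near-identical copy over more than 99% of their length.

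In the deep library the order changed at the top and the gap at the bottom widened. mt-Cytb at 10570.4 RPKM and mt-Co1 at 10375 were the highest, followed by mt-Nd1 at 5798, mt-Nd2 at 3217, mt-Nd5 at 2476, mt-Nd6 at 2156 and mt-Nd4 at 2000.1. The members copied over their whole length were at 0.196 RPKM (mt-Co2), 0.09 (mt-Co3) and 0.05 (mt-Atp6). Together mt-Co2, mt-Co3 and mt-Atp6 held 65, 45 and 53 counts in the Sirpa-WT libraries and 7, 59 and 50 in Sirpa-KO. The 5 members with no near-identical annotated copy held 3985, 3849 and 3537 counts in the Sirpa-WT libraries and 795229, 3783 and 3395 in Sirpa-KO. The ratio of mt-Co1 to mt-Cytb per kilobase was 2.22 to 2.97 in the shallow libraries and 0.98 in the deep one. The members copied over their whole length were thus the lowest. The partly copied mt-Co1 (31.3%) was the highest member in the shallow libraries. mt-Nd4 (63.6%) lay above mt-Nd2, mt-Nd5 and mt-Nd6 there and below them in the deep library. mt-Atp8, which is not a member, was at 80.0 to 159 RPKM in the shallow libraries and at 0 in the deep one. No near-identical annotated copy of mt-Atp8 was found, but nuclear sequence outside annotated transcripts was not searched. On MT it lies between mt-Co2 and mt-Atp6, overlapping the latter, and both of these have copies in the chromosome 1 cluster. Whether the cluster also holds mt-Atp8 was not tested. The part of shared sequence in these levels was not tested.

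**Figure D2:**
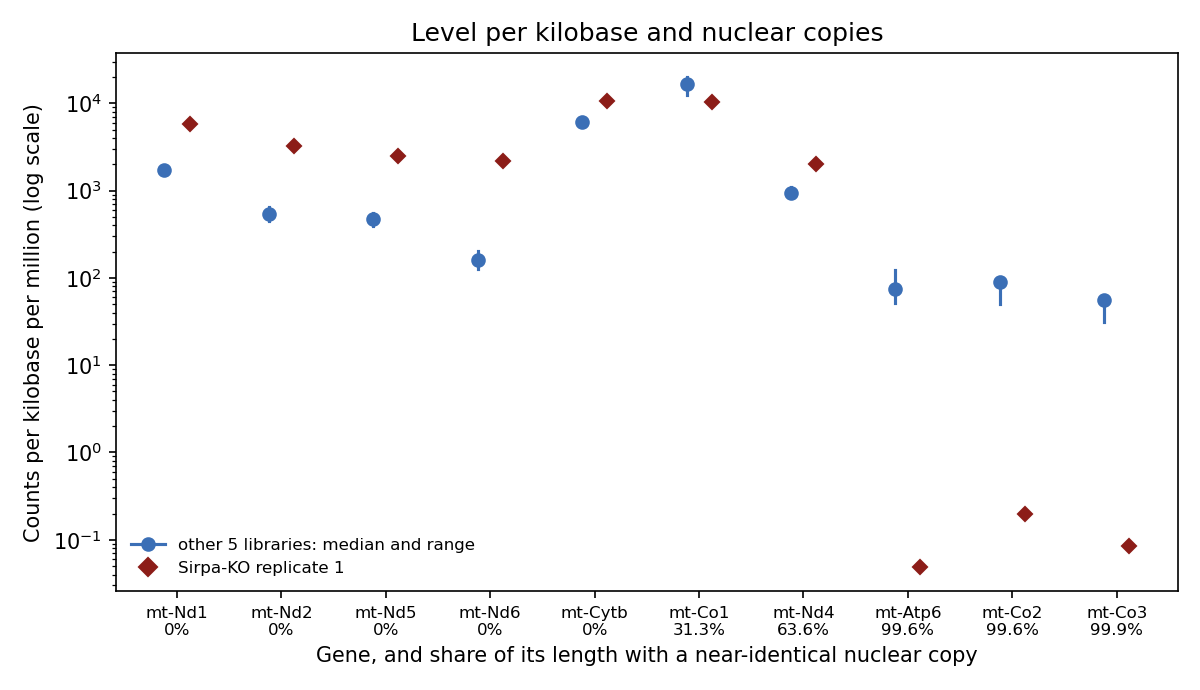
Level per kilobase (RPKM, log axis) of the 10 members, placed by the share of their length held in a near-identical nuclear copy, for the 5 shallow libraries and the deep library. The 3 members at 99.6% to 99.9% have the lowest levels in both, at 31.2 to 123 RPKM in shallow libraries and at 0.05 to 0.20 in the deep one.

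Each member was also set against all counts on the 13 MT protein-coding genes, which removes the nuclear transcriptome from the scale. The 10 members held at least 99.8% of these counts in every library. mt-Co1 took 70.00%, 70.5% and 70.3% in Sirpa-WT, against 35.3%, 64.6% and 64.5% in Sirpa-KO. mt-Cytb took 18.03%, 18.3% and 17.5% in Sirpa-WT, against 26.6%, 21.1% and 21.5% in Sirpa-KO. So mt-Co1 held less and mt-Cytb more of the mitochondrial messenger counts in each Sirpa-KO library than in any Sirpa-WT library. Wilson 95% intervals on these shares were at most 0.894 points wide to either side for mt-Co1 in the shallow libraries and 0.080 in the deep one. They cover counting error only. These reads carry no molecular identifiers, so the intervals may be too narrow even for that.

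The complex I shares were smaller and spread further. mt-Nd1 took 4.07%, 3.84% and 4.67% in Sirpa-WT, against 12.2%, 4.63% and 5.13% in Sirpa-KO, with 1 Sirpa-KO library inside the Sirpa-WT range. mt-Nd4 took 3.37%, 3.28% and 3.31% in Sirpa-WT, against 6.07%, 4.13% and 4.13% in Sirpa-KO. mt-Nd5 took 2.34%, 2.08% and 1.996% in Sirpa-WT, against 9.95%, 2.81% and 2.43% in Sirpa-KO, and mt-Nd2 took 1.53%, 1.38% and 1.42% in Sirpa-WT, then 7.36%, 1.86% and 1.57%. For mt-Nd2, mt-Nd4 and mt-Nd5 all Sirpa-KO shares were above all Sirpa-WT shares. mt-Nd6 took 0.177%, 0.201% and 0.263% in Sirpa-WT, against 2.46%, 0.227% and 0.227% in Sirpa-KO, where the shallow Sirpa-KO libraries lay inside the Sirpa-WT range. mt-Co2, mt-Co3 and mt-Atp6 each held 0.0805% to 0.227% in the shallow libraries and at most 0.000295% in the deep one. By complex, the complex I genes summed to 11.5%, 10.8% and 11.7% in Sirpa-WT and to 38.1%, 13.7% and 13.5% in Sirpa-KO, and the complex IV genes to 70.3%, 70.7% and 70.5% against 35.3%, 64.9% and 64.8%.

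**Figure D3:**
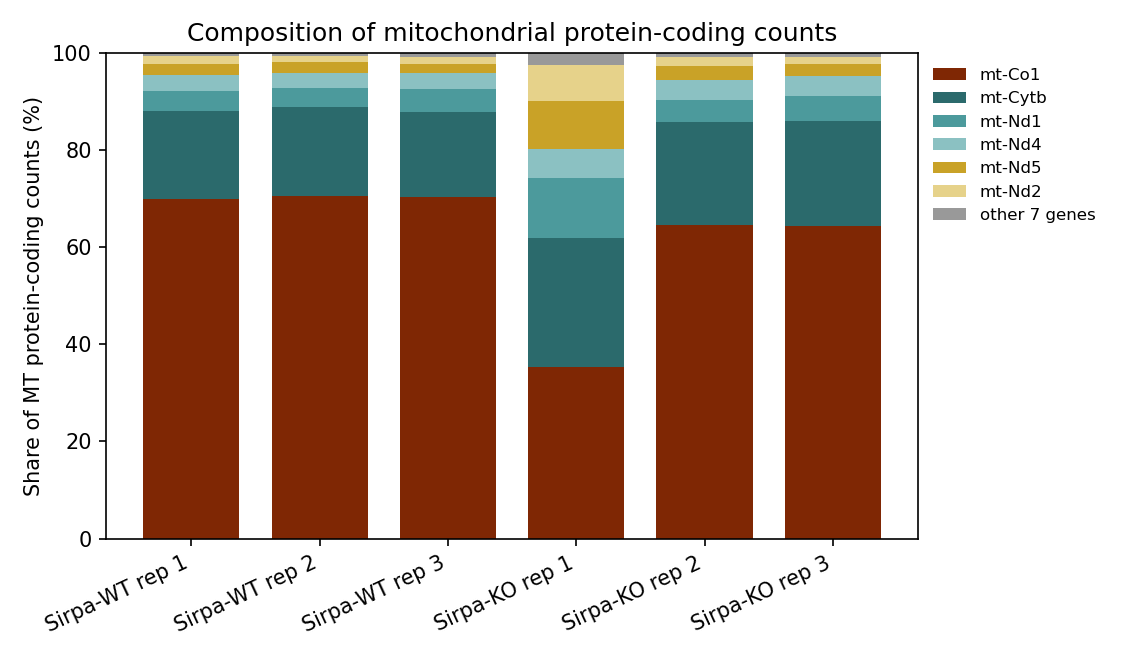
Share of all MT protein-coding counts in each of the 6 libraries, as stacked bars that start at 0. mt-Co1, mt-Cytb, mt-Nd1, mt-Nd4, mt-Nd5 and mt-Nd2 are drawn singly, and the remaining MT protein-coding genes are summed. mt-Co1 fills 70.0% to 70.5% of the Sirpa-WT bars, 64.5% and 64.6% of the shallow Sirpa-KO bars and 35.3% of the bar of the deep library.

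The shares of 5 of the 10 members did not overlap between the groups: mt-Co1 was lower, and mt-Nd2, mt-Nd4, mt-Nd5 and mt-Cytb were higher in Sirpa-KO. Genes off the MT chromosome have no such share. In CPM, another measure, 30.7% of the genes tested did not overlap over the same 6 libraries, and of the members mt-Co1 alone did not. The mt-Co1 share was 70.3% ± 0.268 (SD, n = 3) in Sirpa-WT and 54.8% ± 16.9 (SD, n = 3) in Sirpa-KO, a difference of -15.5 points. An exact 2-sided permutation test over libraries gave p = 0.10, the smallest that 3 against 3 allows, and 0.20 after Benjamini-Hochberg adjustment over the 10 members. Without the deep library the Sirpa-KO share was 64.5% ± 0.0915 (SD, n = 2), a difference of -5.76 points, with an exact p of 0.20, again the smallest possible. The mt-Cytb share without it went from 17.96% ± 0.415 (SD, n = 3) to 21.3% ± 0.279 (SD, n = 2), a difference of 3.35 points at the same exact p. No share passed the threshold of 0.05, which neither design can reach.

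Shares add up to a whole, so a lower mt-Co1 share raises the shares of the others. With mt-Co1 left out of the denominator, an alternative chosen after seeing the data, 0 of the 9 other members had shares that did not overlap over 6 libraries. Over the 5 shallow libraries, mt-Cytb then took 60.4% ± 1.61 (SD, n = 3) in Sirpa-WT and 60.1% ± 0.630 (SD, n = 2) in Sirpa-KO, and mt-Nd1 took 14.1% ± 1.44 and 13.8% ± 0.946. mt-Nd4 still did not overlap there, at 11.2% ± 0.0535 against 11.6% ± 0.0400, nor did mt-Co2, which rests on 12 to 25 counts.

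As a group, MT protein-coding genes held 3.70%, 4.33% and 3.96% of all counts in the Sirpa-WT libraries and 4.54%, 3.64% and 2.99% in Sirpa-KO. These ranges overlapped (exact permutation test, 2-sided p = 0.60). Without the deep library both Sirpa-KO values were below all Sirpa-WT values, at 3.32% ± 0.460 (SD, n = 2) against 3.998% ± 0.318 (SD, n = 3), with an exact permutation p of 0.20, the smallest possible. Less mt-Co1, the other MT protein-coding genes held 1.11%, 1.28% and 1.17% in Sirpa-WT, against 2.94%, 1.29% and 1.06% in Sirpa-KO, with the deep library highest and the shallow Sirpa-KO libraries on either side of the Sirpa-WT range. As a share of protein-coding counts only, MT protein-coding genes held 5.38%, 6.28% and 5.83% in Sirpa-WT, against 4.61%, 5.13% and 4.21% in Sirpa-KO, and these did not overlap (exact permutation p = 0.10, and 0.20 without the deep library, each the smallest its design allows).

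Sirpa-KO and Sirpa-WT were compared gene by gene with edgeR's quasi-likelihood test over all genes that passed a filter on low counts, and all 10 members passed it. Over all 6 libraries, 0 of 10 members passed an adjusted p of 0.05, as did 0.0% of the 5397 genes tested, of which 344 had an unadjusted p under 0.05, no member among them. DESeq2 called 1 gene. limma voom called 1283 genes, 23.5% of those tested as lower, among them mt-Co2, mt-Co3 and mt-Atp6, whose deep library values rest on 1 to 4 counts. The fitted log2 fold changes of the members ran from -1.09 to 2.11 with a median of 0.21, against 0.11 over all genes tested. mt-Nd6 had 2.11 ± 1.17 (SE, edgeR adjusted p = 0.574), mt-Nd2 1.19 ± 0.79 and mt-Nd5 1.10 ± 0.77. mt-Co1 had -0.67 ± 0.81 (edgeR adjusted p = 0.73) and mt-Cytb 0.12 ± 0.64. In CPM, mt-Co1 was the 1 member of 10 whose groups did not overlap, where 30.7% of the genes tested did not overlap and 10.2% had Sirpa-KO lower.

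Without the deep library, 1 of 10 members was called, where 5.84% of 5510 genes were called, 4.52% lower and 1.32% higher. The balance of directions over all genes depended on the scaling: 73 genes were called higher and 249 lower with TMM, against 279 higher and 128 lower with library size alone, which moved the median log2 fold change of all genes from 0.01 to 0.15. The called member was mt-Co1, which fell from 28103 ± 2337 CPM (SD, n = 3) in Sirpa-WT to 21407 ± 2999.5 CPM (SD, n = 2) in Sirpa-KO. Its log2 fold change was -0.51 ± 0.07 with TMM (SE, edgeR adjusted p = 2.35e-09). With library size alone, the scale of the CPM values, it was -0.38. Both Sirpa-KO libraries were below all Sirpa-WT libraries. In the same 5 libraries 3 of the 9 melanocyte markers were also called lower. Their list summed to 16108 to 19240 CPM in Sirpa-WT and to 12732 and 13131 CPM in Sirpa-KO. Dct had the largest gap, at 7901 to 9935 CPM in Sirpa-WT against 4575 and 4863 CPM in Sirpa-KO. Pmel and Mitf were also below all Sirpa-WT libraries, while Mlana, Tyr, Tyrp1, Sox10, Slc45a2 and Gpr143 overlapped. The markers of other cell types stayed at or under 43.5 CPM. The part of the melanocyte markers in the mt-Co1 result was not tested. mt-Co1 was lower and called with both scalings, and in all 16 settings of this 5-library comparison that kept both shallow Sirpa-KO libraries, with log2 fold changes from -0.57 to -0.33 and a largest adjusted p of 3.57e-04. The other 2 settings left 1 Sirpa-KO library, whose spread is assumed to be that of Sirpa-WT, and gave -0.69 without replicate 2 and -0.39 without replicate 3 (adjusted p = 0.0102). DESeq2, which called 2.4% of the genes over these 5 libraries, gave mt-Co1 -0.51 at an adjusted p of 1.22e-04. The next largest member by level, mt-Cytb, had -0.14 ± 0.08 with TMM (edgeR adjusted p = 0.288) and -0.0072 with library size alone. Its CPM went from 7184 ± 672 (SD, n = 3) to 7063 ± 888 (SD, n = 2). mt-Nd1 had -0.17 ± 0.10 (edgeR adjusted p = 0.289). mt-Nd2, mt-Nd4, mt-Nd5 and mt-Nd6 had -0.12 ± 0.13, -0.07 ± 0.10, -0.09 ± 0.11 and -0.29 ± 0.27. The low-count members mt-Co2, mt-Co3 and mt-Atp6 had 0.35 ± 0.30, -0.41 ± 0.37 and -0.26 ± 0.31, with standard errors 3 or more times that of mt-Cytb. The median over the 10 members was -0.16, against 0.01 over all genes tested. In CPM, mt-Co1 (lower) and mt-Co2 (higher) did not overlap between the groups, where 38.1% of genes tested did not, 26.3% with Sirpa-KO higher and 11.8% with Sirpa-KO lower.

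**Figure D4:**
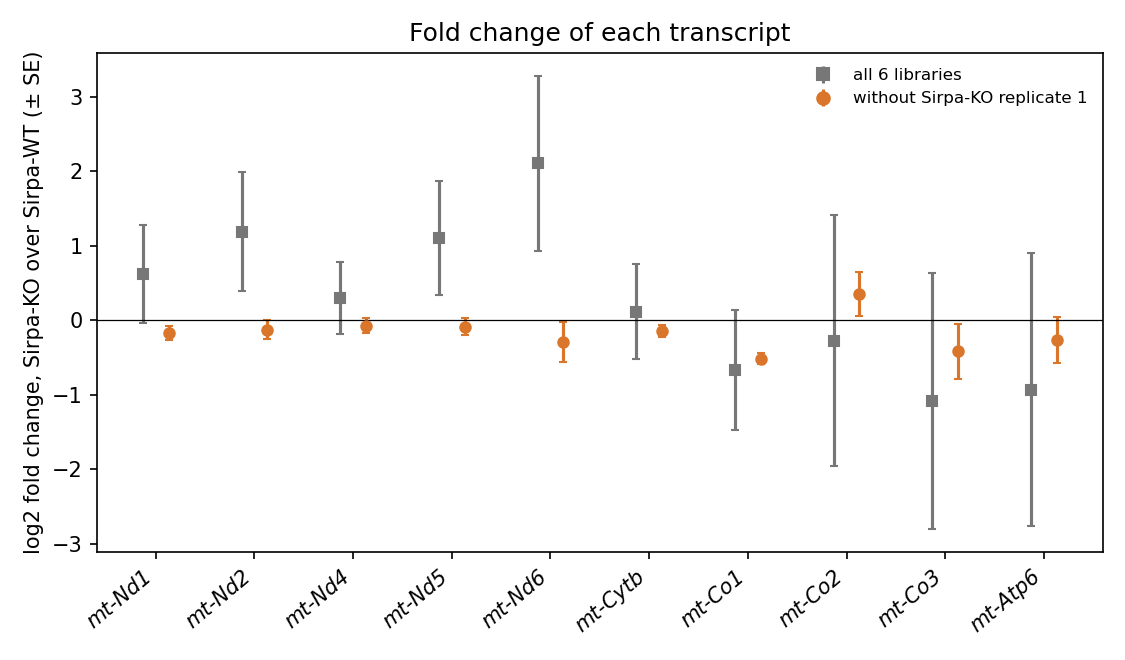
Log2 fold change of Sirpa-KO over Sirpa-WT for each member from edgeR, with error bars of 1 standard error, over 6 libraries and without the deep library. With the deep library the error bars reach 1.83 and none of the 10 members is called, and without it mt-Co1 at -0.51 is the called member.

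After a further step, added after seeing the data, that removed a trend of the fold change on how each gene's level compared with the deep library, 2 members were called. mt-Co1 then had -0.33 (edgeR adjusted p = 3.57e-04) and mt-Nd1 -0.41 (edgeR adjusted p = 0.00174), where 1.89% of genes were called. The call of mt-Nd1 appeared in that 1 setting of 18, and its adjusted p over the settings ran from 0.00174 to 0.856.

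Nuclear pseudogenes copied from the members carried many counts in the shallow libraries and few in the deep one. Together the copies found held 21.3%, 19.3% and 20.1% of the counts on copies and MT protein-coding genes in Sirpa-WT, against 0.0307%, 19.7% and 20.99% in Sirpa-KO. Gm11512, a copy of 654 bases of mt-Co1 at 90.7% identity, had 2491, 2184 and 2145 counts in the Sirpa-WT libraries and 7, 1511 and 1440 in the Sirpa-KO ones. Gm13340, a copy of mt-Co1 at 97.6% identity, had 943, 818 and 792 counts in the Sirpa-WT libraries and 229, 844 and 835 in the Sirpa-KO ones. Gm13341, a copy of mt-Co2 on chromosome 2 at 95.9%, had 326, 281 and 233 counts in the Sirpa-WT libraries and 103, 304 and 316 in the Sirpa-KO ones, several times the counts of mt-Co2 itself in every library. Gm11410, a copy of mt-Cytb at 92.9%, had 105, 71 and 67 counts in the Sirpa-WT libraries and 14, 100 and 87 in the Sirpa-KO ones. Gm11408, a copy of mt-Nd6 at 93.6%, had 22, 14 and 15 counts in the Sirpa-WT libraries and 0, 13 and 9 in the Sirpa-KO ones, against the 25 to 36 shallow counts of mt-Nd6. Gm10222, a copy of mt-Nd4l and the 1 gene of the chromosome 1 cluster listed in the count files, had 118, 101 and 85 counts in the Sirpa-WT libraries and 49, 131 and 125 in the Sirpa-KO ones. Over the 5 shallow libraries Gm11512 was the one copy called, at -0.69 ± 0.08 (SE) on the log2 scale (edgeR adjusted p = 2.73e-13), the same direction as mt-Co1, while Gm13340 had -0.08 ± 0.09. Gm11512 and Gm13340 had fewer counts in the deep library than in any shallow one, while mt-Co1 had 478917 against 7091 to 10668. The part of these copies in the mt-Co1 result was not tested.

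**Figure D5:**
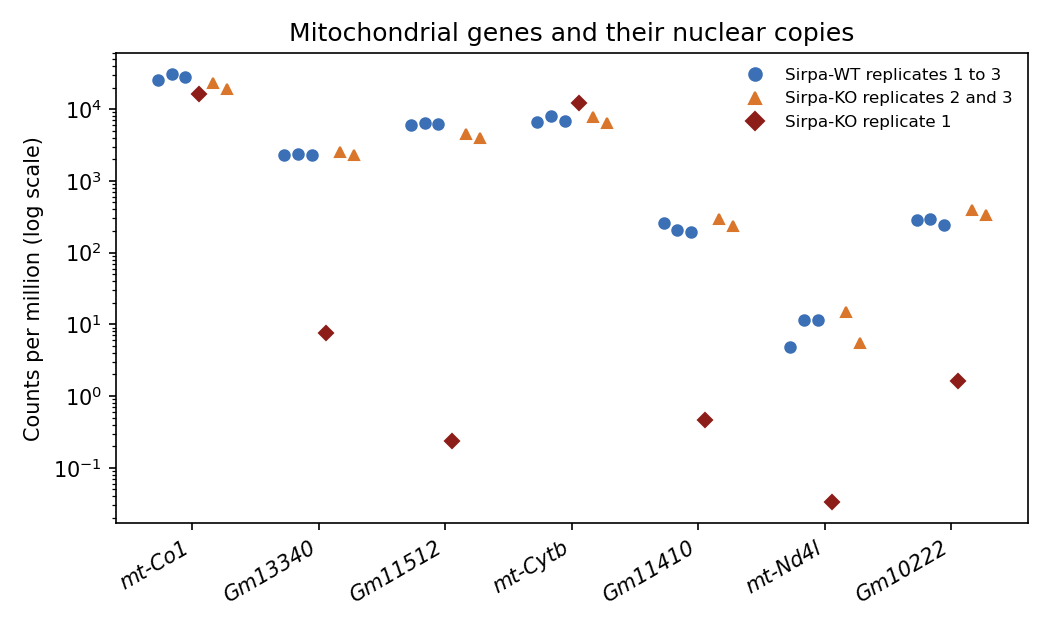
CPM in each library, on a log axis, of mt-Co1, mt-Cytb and mt-Nd4l and of their nuclear pseudogene copies Gm13340, Gm11512, Gm11410 and Gm10222. The 5 shallow libraries lie close together for each copy and the deep library lies far below them, for Gm11512 at 0.234 CPM against 3917 to 6352.

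The other RNAs of the mitochondrial chromosome give the setting of the members. The large ribosomal RNA mt-Rnr2 had 86, 75 and 79 counts in the Sirpa-WT libraries and 60918, 95 and 71 in Sirpa-KO, and the small one, mt-Rnr1, had 5, 3 and 3 against 11871, 2 and 3. The library kit selects polyadenylated RNA. The 22 transfer RNAs had 0 to 3 counts in all in each shallow library and 3619 in the deep one. mt-Atp8, which shares its transcript with mt-Atp6, had 7, 6 and 7 counts in the Sirpa-WT libraries and 0, 11 and 6 in Sirpa-KO.

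Nuclear genes that make, process, translate or assemble with the members were followed in 7 lists. Over 6 libraries no gene of these lists was called, and over the 5 shallow libraries 7 of 146 tested were, or 4.79%, near the 5.84% of all genes. Over the 5 shallow libraries, 0 of 3 tested genes of mitochondrial transcription were called (Mrpl12, a ribosomal protein that also binds the mitochondrial RNA polymerase, had -0.32, edgeR adjusted p = 0.232). Of the replication and packaging genes 0 of 5 were called, and of the RNA processing, polyadenylation and decay genes 0 of 9. The most abundant gene of each list, Polg (the mitochondrial DNA polymerase) and Ptcd3 (a mitoribosome-associated RNA-binding protein), had -0.13 ± 0.22 and 0.17 ± 0.11 (SE). Of 2 tested biogenesis regulators 0 were called, and Myc, the more abundant, had -0.45 ± 0.35 (SE). Of 43 mitochondrial ribosome and translation genes, 2 rose and 2 fell: Mrpl35 by 0.60 (edgeR adjusted p = 0.0048) and Mrpl42 by 0.97 (0.0205) rose, while Mrpl14 at -1.06 (0.0135) and Mrpl57 at -0.89 (0.0423), the latter named after its value was seen, fell. Of 69 nuclear-encoded respiratory chain subunits, none rose and 2 fell, Ndufa2 at -0.81 ± 0.14 (SE, edgeR adjusted p = 5.99e-07) and Ndufb6 at -0.55 (0.0294), both accessory subunits of complex I. Of 15 assembly factors, 1 fell, Uqcc2 of complex III at -0.62 (edgeR adjusted p = 0.0445). The medians of the subunit list and of the ribosome list were 0.10 and -0.02, beside 0.01 over all genes. The summed level of the nuclear subunits was 7785 to 9337 CPM in the shallow libraries and 17484 in the deep one.

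The genes whose pattern over the 6 libraries was most like the summed members were found by the root mean square difference of mean-centred log2 CPM (with 1 added) among 1885 genes of at least 100 mean CPM. They were Slc25a13 (0.10), an aspartate-glutamate carrier of the inner mitochondrial membrane, Capns1 (0.13), Rab18 (0.14), Syt4 (0.14) and Zfp24 (0.15). Slc25a13 was at 191 to 224 CPM in Sirpa-WT and 155 to 199 in Sirpa-KO. The summed members were at 29891 to 43309 CPM in the shallow libraries and 45402 in the deep one, while single members of the deep library differed from the shallow mean by -6.99 (mt-Atp6) to 3.79 (mt-Nd6) on the log2 scale.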

How the data were processed

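RNA-seq libraries of cultured cells, 3 Sirpa-WT and 3 Sirpa-KO, were prepared with a stranded TruSeq mRNA kit, per the labels. Per the submitters' processing notes, STAR 2.6.0, Subread and featureCounts 1.5.1 were used with GRCm38. Per the file headers, featureCounts ran on read pairs with no option for strand, multi-mapping or overlapping reads. The authors deposited raw counts per gene with a gene length. From these, CPM and RPKM used the summed counts and deposited length. edgeR 4.0.16 (TMM, filterByExpr with minimum count 10, robust quasi-likelihood, 2-sided, Benjamini-Hochberg over all genes tested, threshold 0.05) gave the comparison, with limma 3.58.1 and DESeq2 1.42.0 in R 4.3.3 as alternatives, and the code was tested on simulated data. The simulation drew every library from the mean profile of the shallow libraries. It thus leaves out the differing composition of the deep library. Nuclear copies were found with blastn 2.17.0 (identity at least 85%, 100 bases) against GENCODE M21 transcripts, also GRCm38, and sequences come from those transcripts. Precision is set by 338824 to 411695 counts in 5 libraries, where 1 count is 2.43 to 2.95 CPM. Of 39179 gene IDs, 37607 had a symbol. Named genes were the members, the other MT genes, up to 3 called genes per nuclear list (otherwise the most abundant), copies, and the 5 genes with the most similar pattern. The members and lists were chosen with earlier results of these data known.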

Additional observations from a re-analysis of the deposited data

How the results depend on the processing

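Over 6 libraries, the count of called genes was 0 and moved to 1 with DESeq2 and to 1283 with limma voom, which also called 3 members. Leaving out 1 library at a time gave 0 to 322 called genes and 0 to 1 called members, where the call of mt-Co1 came from leaving out Sirpa-KO replicate 1. The log2 fold change of mt-Cytb, 0.12, turned to -0.042 with RLE scaling, -0.042 with DESeq2, -0.093 with no filter, -0.14 with a minimum of 1 CPM, -0.13 with protein-coding genes alone and -0.086 with the deep library thinned. Leave-one-out ranges that changed sign were mt-Co2 -0.79 to 0.35, mt-Cytb -0.14 to 0.22, mt-Nd1 -0.17 to 0.84, mt-Nd2 -0.12 to 1.52, mt-Nd4 -0.072 to 0.43, mt-Nd5 -0.085 to 1.42 and mt-Nd6 -0.29 to 2.505. The cause was not tested.

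Over the 5 shallow libraries, 322 called genes became 132 with DESeq2, 198 with protein-coding genes alone and 104 with the trend removed (35 higher and 69 lower, 2 members among them), and 125 to 351 with 1 more library left out: 125 without Sirpa-KO replicate 2 and 127 without replicate 3, where the lone Sirpa-KO library is assumed to vary like the others, and 214 without Sirpa-WT replicate 2. Scaling by library size alone turned mt-Nd2 to 0.013, mt-Nd4 to 0.065 and mt-Nd5 to 0.051. Leave-one-out ranges that changed sign were mt-Atp6 -0.51 to 0.11, mt-Nd2 -0.43 to 0.11, mt-Nd4 -0.24 to 0.052 and mt-Nd5 -0.37 to 0.13.

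The difference in share turned with mt-Co1 out of the denominator for mt-Co2 (-0.0212 points), mt-Cytb (-6.68) and mt-Nd4 (-0.279), and the count of 5 non-overlapping members went to 0. Leave-one-out ranges were -0.0268 to 0.0866 points for mt-Co2, -0.0724 to 0.0103 for mt-Atp6, and 5 to 7 non-overlapping members. The difference in MT share of all counts, -0.273 points, was 0.576 less mt-Co1, and -0.680 to 0.0939 with 1 library left out.

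Groups share replicate numbers, but the sample titles give only a group and a number, so the numbers are taken as names. Same-numbered libraries correlated at 0.02, -0.04 and 0.06 in their deviations from the group means. These correlations cannot decide whether libraries are paired, because the Sirpa-KO mean includes the deep library. Sirpa-WT replicate 3, for example, correlated at -0.063 with the deep library and at 0.065 and 0.058 with Sirpa-KO replicates 2 and 3. With the replicate block, 0 genes were called over 6 libraries and 316 over 5, and mt-Co1 had -0.57 in the latter. Depth limits mt-Co2, mt-Co3, mt-Atp6 and mt-Nd6, at 9 to 36 counts in the shallow libraries.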
